A study of Mus musculus with 4 samples.

Results

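The 8 genes described here encode the contractile apparatus of smooth muscle: the actins Actg2 and Acta2, the myosin heavy chain Myh11, the regulatory light chain Myl9 and its kinase Mylk, the actin-binding proteins Cnn1 and Tagln, and the intermediate filament protein Des. Every probe set that the platform annotation assigns to 1 of these genes was taken, which gave 13 of the 22626 probe sets that are not controls, for 8 of 12393 genes. No probe set was annotated to 1 of them together with another gene. RNA came from the intestinal mucosa of male mice, 10 weeks old, of the inbred strains A/J and C57BL/6J, kept for 2 weeks on food that was low or high in fat. No allele or other treatment is named for any group. Each of the 4 groups had 6 mice, RNA of 2 of them was pooled, and each pool went onto 1 Affymetrix array. No group had a second array, so a ratio between arrays has no error of its own and no test.

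Smooth muscle contracts when calcium and calmodulin activate myosin light chain kinase, which phosphorylates the regulatory light chain and lets myosin pull on actin. In the gut these proteins fill the circular and longitudinal muscle layers outside the mucosa, the thin muscularis mucosae at its base, the strands inside villi and the walls of blood vessels. Epithelial cells lack most of them, but Mylk also encodes a long form that acts on the epithelial junction ring. Serum response factor, helped by myocardin, drives many of these genes through a short element called the CArG box.

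The promoters of 5 of the 8 genes were found in RefSeq sequence of build GRCm38.p6, and the 250 bases before the start were searched for the CArG box on both strands. The reverse complement of a CArG box is again one, so a match counts for both. The promoters of Acta2 and Myl9 are shown because they were the 2 that held the element, exact or with 1 of the 6 core bases neither A nor T. Capitals mark the matches.

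Acta2, chr19:34255374-34255623, minus strand, GRCm38.p6: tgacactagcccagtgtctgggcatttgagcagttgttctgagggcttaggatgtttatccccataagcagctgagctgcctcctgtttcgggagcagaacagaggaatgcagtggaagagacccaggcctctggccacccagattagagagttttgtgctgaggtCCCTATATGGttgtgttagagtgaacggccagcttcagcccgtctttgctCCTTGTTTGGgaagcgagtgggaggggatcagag

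Myl9, chr2:156775214-156775463, plus strand, GRCm38.p6: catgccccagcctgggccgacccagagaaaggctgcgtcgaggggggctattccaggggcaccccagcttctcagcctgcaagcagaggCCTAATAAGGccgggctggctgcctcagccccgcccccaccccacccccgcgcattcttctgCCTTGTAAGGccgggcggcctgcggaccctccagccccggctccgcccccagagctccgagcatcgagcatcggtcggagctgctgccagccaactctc

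Only CCTAATAAGG of Myl9, whose first base lies at -161 from the start, is an exact CArG box. Its second match, at -99, and both matches of Acta2, at -84 and -34, have 1 core base off. Of 32851 promoters of the same length, 1.47% held an exact element and 8.59% held one with at most 1 core base off. The windows of Cnn1, Des and Mylk held neither, which says only that these letters are not in these 250 bases.

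The deposited signals were scaled so that every array had the same trimmed mean, 500, and any value below 100, the floor, was raised to it before a ratio was taken. On this scale 58.6% to 60.3% of the probe sets of an array reached the floor. Epithelial signal was read from 16 epithelial genes, all of which were measured, meaning a mean scaled signal of at least 100. Their summed signal lay between 97.3% and 100% of that of the A/J low-fat array. Such a sum cannot tell mucosa alone from mucosa with muscle wall. Of the smooth muscle genes, 7 of 8 were measured, and 10 of their 13 probe sets.

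All 8 genes had their highest signal on the A/J low-fat array, where each gene is read from its brightest probe set. Of the 8036 measured genes of the array, 27.5% were highest there. Counted over probe sets, 9 of the 13 for these genes were highest on that array, against 30.4% of the 20380 probe sets with 1 gene. The summed scaled signal of the 8 genes was 6916 for A/J on low-fat and 4836 on high-fat, and 4559 and 4496 for C57BL/6J on these diets. The last 3 arrays thus stood close together, at 69.9%, 65.9% and 65.0% of the first. From here on, 4 signals in a row are always in this order: A/J on low-fat, then on high-fat, then C57BL/6J likewise. Most of the sum is Mylk, and without it the sums were 3086, 2066, 1887 and 1837, or 66.9%, 61.2% and 59.5% of the first array. In such pools, fewer muscle cells and less RNA per muscle cell cannot be told apart.

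**Figure D1:**
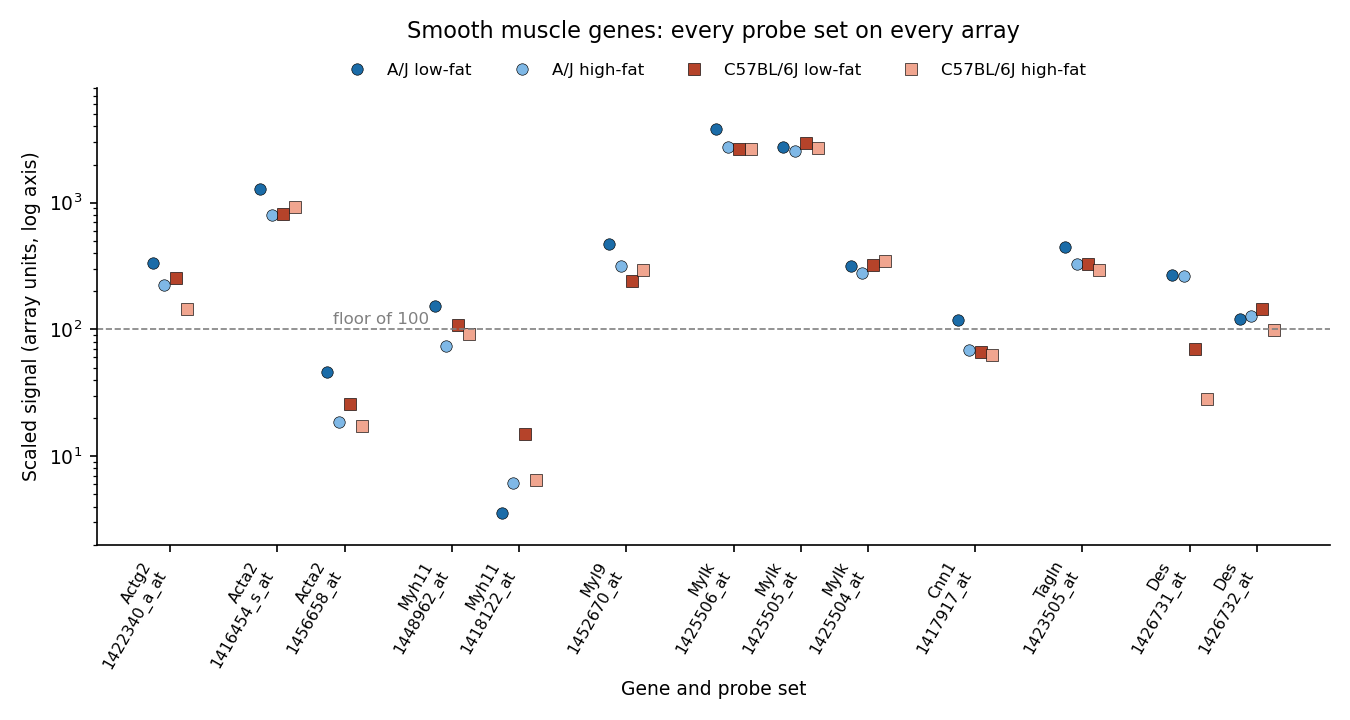
Scaled signal (array units, log axis) of each of the 13 probe sets of the 8 genes on the 4 arrays; each point is 1 array, circles are A/J, squares are C57BL/6J, dark is low-fat and light is high-fat, and the dashed line is the floor of 100. A/J low-fat is highest in 9 probe sets, among them Acta2 at 1289, Myl9 at 475 and Tagln at 446, while 2 of the 3 Mylk probe sets and the dimmer one of Des and of Myh11 have another array on top.

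The actins form the thin filaments. Actg2 encodes gamma smooth muscle actin, the main actin of visceral muscle, and had scaled signals of 334, 224, 256 and 145. In each strain the high-fat array was the lower of the pair. Acta2 encodes alpha smooth muscle actin, which vessels and myofibroblasts also make, and its probe set 1416454_s_at gave 1289, 792, 816 and 918. Only the A/J low-fat array stood apart for Acta2, and the other 3 lay within 1.16-fold of each other. A second Acta2 probe set, 1456658_at, had signals of 46.2, 18.5, 25.8 and 17.4, all under the floor. It gives no ratio, although its highest value was again on A/J low-fat. The suffixes of the first Acta2 probe set and of the single one for Actg2, 1422340_a_at, mark them as shared between transcripts. Without such probe sets Acta2 has no measured level and Actg2 has no value at all.

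Myosin forms the thick filaments. Myh11 is the smooth muscle heavy chain and is among the most specific markers of the cell type. Probe set 1448962_at gave 153, 74.6, 109 and 92.8. Both high-fat arrays were under the floor, so its diet ratios are bounds. Myh11 also passed the filter on mean signal only through A/J low-fat, the array where it was highest. The second Myh11 probe set, 1418122_at, had signals of 3.53, 6.17, 15.1 and 6.48, far under the floor on every array, and its order has no meaning there.

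Myl9, the regulatory light chain that the kinase phosphorylates, had signals of 475, 318, 241 and 294. A/J was higher on each diet, and the gap was wider on low-fat. The kinase gene Mylk is the brightest of the 8, and its 3 probe sets did not give the same pattern. Probe set 1425506_at gave 3830, 2770, 2672 and 2659, with A/J low-fat alone above the rest. Probe set 1425505_at gave 2764, 2573, 2974 and 2722, and 1425504_at gave 316, 276, 322 and 350, so on these the A/J low-fat signal lay within the range of the others. The Mylk difference therefore rests on 1 of 3 probe sets.

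Cnn1 (calponin) and Tagln (transgelin, or SM22) bind actin and are used as markers of differentiated smooth muscle. Cnn1 passed the floor on A/J low-fat alone, at 119, with 69.0, 65.8 and 63.1 on the other arrays. A gene that passes only where it is high had to differ, and its ratios are bounds. Tagln was above the floor on all arrays, with 446, 326, 330 and 295. A/J on low-fat was 1.35-fold above C57BL/6J on that diet and 1.37-fold above A/J on high-fat, and the diets differed by 1.12-fold in C57BL/6J.

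Des encodes desmin, the intermediate filament that links contractile units in all muscle types. It was the one gene of the 8 whose signal followed strain rather than the A/J low-fat array. Probe set 1426731_at gave 270 and 262 in A/J, and 69.5 and 28.0 in C57BL/6J, both under the floor. The other probe set, 1426732_at, did not show this, giving 121 and 129 for A/J but 145 and 99.6 for C57BL/6J. On low-fat it was 1.19-fold lower in A/J, where the first probe set was at least 2.70-fold higher. The 2 probe sets thus disagree on the direction of the strain difference on the low-fat diet.

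In A/J, the strain known to resist obesity, the diet comparison asks what dietary fat changes in the mucosa. All 8 genes were lower on the high-fat array, with a median log2 ratio of -0.52 against 0 over all 12393 genes and 0.01 over the measured ones. Acta2 was 1.63-fold lower and Myh11 at least 1.53-fold lower. Myl9 and Actg2 were each 1.49-fold lower, Mylk was 1.38-fold lower and Tagln 1.37-fold lower. Cnn1 was at least 1.19-fold lower, and Des differed by 1.03-fold.

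Of the 8 genes, 2 were at least 1.5-fold lower in A/J on high-fat, where 3.1% of all genes were and 5.56% of genes with a mean signal from 100 to 1000. With signals raised to the floor, no ratio of the 8 genes reached 2-fold, which 0.678% of all genes did in that direction. The Myh11 ratio is a bound, and its signals before the floor, 153 and 74.6, were 2.05-fold apart. The Acta2 ratio was lower than that of 97.0% of measured genes, and those of Myl9 and Actg2 were lower than 95.2% and 95.1%. Probe sets for the same gene give a yardstick for such sizes: over 2878 genes with a pair of measured probe sets, their log2 ratios in this comparison differed by a median of 0.27 and by 0.67 at the 90th percentile. Among the 6 ratios with both signals above the floor, Acta2, at -0.70, was the one beyond the latter. Probe sets for a gene read the same pool on the same array. Here and below, this yardstick therefore leaves out the spread between pools and cannot show that a ratio exceeds it. The Myh11 bound of -0.61 became -1.04 with a floor of 50. With each gene read as the average of its probe sets, the median over the 8 genes was -0.33 and Des stood at 0.02.

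In C57BL/6J the same diet comparison gave no common direction. The median log2 ratio of the 8 genes was -0.0034, with 2 genes higher, 4 lower, and Des and Cnn1 under the floor on both arrays. Actg2 was 1.77-fold lower on high-fat and was the only gene of the 8 at least 1.5-fold lower, a size that 3.08% of all genes reached. Its log2 ratio of -0.82 was also beyond the 0.67 by which probe sets for the same gene differed at the 90th percentile. Acta2 was 1.12-fold higher, Myl9 was 1.22-fold higher, Tagln was 1.12-fold lower, and Mylk was level at 2672 and 2659.

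On the low-fat diet, the comparison of A/J with C57BL/6J asks how the strains differ on food low in fat. All 8 genes were higher in A/J, with a median log2 ratio of 0.51 against 0.02 over the measured genes. Myl9 was 1.97-fold higher, from 241 to 475, and Acta2 1.58-fold, while Des was at least 2.70-fold higher in its brighter probe set. Mylk was 1.43-fold, Myh11 1.41-fold, Tagln 1.35-fold and Actg2 1.31-fold higher, and Cnn1 was at least 1.19-fold higher. Thus A/J was higher by 1.5-fold or more for 3 of the 8 genes, as it was for 7.09% of all genes and 11.8% of those with a mean signal from 100 to 1000. The ratio was 2-fold or more for 1 of them, Des, and for 1.94% of all genes. The log2 ratio of Myl9, 0.98, exceeded the 0.86 by which probe sets for the same gene differed at the 90th percentile in this comparison. This comparison and the A/J diet comparison share the A/J low-fat array, so the 8 higher genes in one and the 8 lower in the other are not separate evidence.

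On the high-fat diet the strains were nearly level, with a median log2 ratio of 0.09 over the 8 genes and 0.04 over the measured genes. Des was at least 2.62-fold higher in A/J in its brighter probe set, and Actg2 was 1.55-fold higher, from 145 to 224. A ratio of 1.5-fold or more in favour of A/J was seen for these 2 genes and for 5.48% of all genes. Tagln had 326 against 295, Myl9 had 318 against 294 and Mylk was 1.04-fold higher, Acta2 was 1.16-fold lower, and Myh11 and Cnn1 were under the floor in both strains. Without scaling between arrays the median was 0.37.

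**Figure D2:**
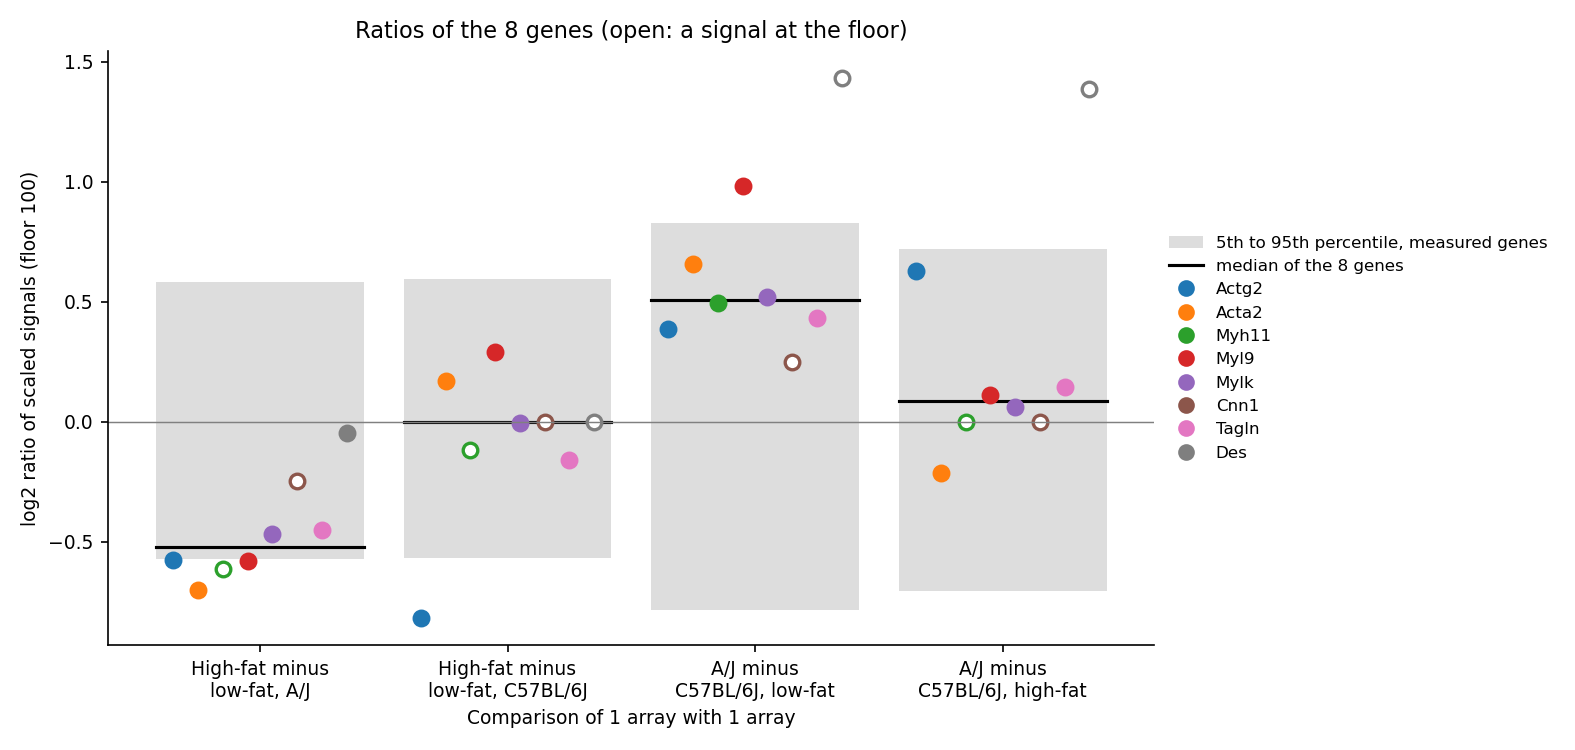
Log2 ratios of scaled signals for each of the 8 genes in the 4 comparisons of 1 array with 1 array, from the probe set with the highest mean; open circles have at least 1 signal at the floor, black bars are the median of the 8 genes, and grey boxes span the 5th to 95th percentile of 8036 measured genes. In A/J all 8 diet ratios lie under 0 with a median of -0.52, and 4 lie under the grey box, while in C57BL/6J the median is -0.0034 and only Actg2 lies under it.

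The strain and diet terms were also fitted over all 4 arrays with limma, as additive effects. That fit takes its error from the strain-by-diet difference and from variance moderated over 8036 genes, not from a spread between pools of 1 group. For diet, 0 of the 7 smooth muscle genes tested passed an adjusted p of 0.05, and 1 had an unadjusted p under 0.05, where 9.35% of measured genes did. Over all measured genes 0.187% fell and 0.423% rose past the adjusted threshold. The gene was Actg2, with a log2 difference of -0.70 (SE 0.20, limma adjusted p = 0.202), and it was lower on high-fat in both strains. The other 6 genes had log2 differences from -0.37 to -0.02 and limma adjusted p-values from 0.676 to 0.991.

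For strain, 1 of the 7 genes passed, where 3.83% of measured genes were called higher in A/J and 3.68% lower. An unadjusted p under 0.05 was found for 3 of the 7, against 21.5% of measured genes. The gene that passed was Des, with a fitted log2 difference of 1.41 in favour of A/J (SE 0.19, limma adjusted p = 0.000705). Des passed the filter on mean signal only through A/J, so it had to be higher there. Both C57BL/6J signals in that fit were raised to the same floor, which hides the gap between them from the error. The size of the strain difference also moves with the floor. It was 2.17 with a floor of 50 (limma adjusted p = 0.00253) and 1.71 with no floor but a pseudocount of 50 (limma adjusted p = 5.4e-06), and an intensity trend gave a limma adjusted p of 0.000246. The call was lost with the mean of both Des probe sets, where the difference was 0.73 (limma adjusted p = 0.0562), with a floor of 200, where it was 0.41 (limma adjusted p = 0.23), and with no filter on mean signal (limma adjusted p = 0.25). Actg2 was higher in A/J by 0.51 (SE 0.20, limma adjusted p = 0.156) and Myl9 by 0.55 (SE 0.23, limma adjusted p = 0.191), both higher in A/J on each diet and neither past the threshold. In 1-factor fits that each left out 1 array, the Actg2 difference ran from 0.096 without C57BL/6J high-fat to 0.92 without C57BL/6J low-fat, and that of Myl9 from 0.26 without A/J low-fat to 0.84 without A/J high-fat. Such fits mix part of the diet difference into the strain difference. For Tagln, Mylk, Myh11 and Acta2 the limma adjusted p-values ran from 0.448 to 0.649.

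Other genes of the smooth muscle cell did not show one common pattern. Of 40 genes on a list of further smooth muscle genes, 29 were found and 15 measured, and their summed signal was 96.8%, 95.7% and 104% of that on A/J low-fat on the other 3 arrays. The 5 brightest genes of this list, which many cell types express, carried from 66.4% to 71.0% of that sum, and the other 24 genes summed to 88.1%, 83.8% and 106% of their A/J low-fat level. In A/J, none of the 29 was higher on high-fat by 1.5-fold or more, where 3.29% of all genes were, and 1 was lower, where 3.1% were: Cav1, the caveola protein caveolin, with signals of 381, 184, 182 and 261. Between the low-fat arrays A/J was higher by 1.5-fold or more for 4 of the 29 and lower for 1, against 7.09% and 6.08% of all genes. The 4 included Cav1 at 2.09-fold, the actin crosslinker filamin A (Flna) at 2.23-fold and the LIM protein Fhl1 at 2.04-fold. By limma, 0 of the 15 measured genes were called for diet, and for strain 0 were called higher and 1 lower in A/J, the small heat shock protein gene Hspb1 (log2 difference -0.82, limma adjusted p = 0.0356). Lmod1, Synpo2, Prkg1 and 7 others were under the floor on all 4 arrays.

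Among transcriptional regulators, Srf, the factor that binds the CArG box, had signals of 354, 288, 463 and 460. It was lower in A/J by a log2 difference of -0.53 (SE 0.20, limma adjusted p = 0.138), which is the direction opposite to that of the 8 genes and not past the threshold. Its coactivator Myocd was under the floor on every array, with a highest signal of 67.7. Mrtfa, also on the regulator list, had 444, 311, 352 and 202. Its log2 difference was 0.48 for strain (limma adjusted p = 0.184) and -0.66 for diet (limma adjusted p = 0.24). These are the directions of the smooth muscle genes fitted, and neither passed the threshold. Over the 7 measured regulators the median difference was 0.0068 for strain and -0.22 for diet. Foxf1, a factor of gut mesenchyme, was 241 on A/J low-fat and 92.8, 97.5 and 102 on the other arrays, at least 2.41-fold lower on high-fat in A/J. It passed the filter on mean signal only through A/J low-fat. Its limma adjusted p was 0.494 for diet and 0.201 for strain. Of 13 regulators found, limma called 0 of the 7 measured for either term.

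Markers of other cells that lie near muscle were read on the same arrays. The pericyte list, with 9 genes found and 5 measured, had summed signals of 1610, 1123, 1086 and 1295, so A/J low-fat was highest here too. Its brightest gene, Rgs5, a regulator of G protein signalling, gave 789, 498, 389 and 545 and carried a large part of the sum. Mustn1 was the one measured pericyte gene not highest on A/J low-fat, with 96.8, 153, 129 and 132. The median strain difference of the 5 measured pericyte genes was 0.059. The endothelial list, with 13 genes found, summed to 91.9%, 84.6% and 87.8% of its A/J low-fat level on the other 3 arrays. Fibroblast markers, with 16 found, summed to 94.6%, 80.9% and 91.2%. The angiopoietin receptor Tek had signals of 304, 187, 68.0 and 77.1, with both C57BL/6J signals under the floor. Limma called it higher in A/J, with a fitted log2 difference of 1.25 (limma adjusted p = 0.00395). Tek passed the filter on mean signal only through A/J. Of the 9 measured endothelial genes, 1 was called for strain, against 3.83% of measured genes called higher in A/J. The median strain difference of the 9 was 0.0017.

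Markers of enteric neurons, interstitial cells of Cajal and mesothelium were mostly under the floor. Of 18 enteric neuron markers found, 13 were under the floor on all 4 arrays, with Uchl1 and Elavl4 among them. Nos1, the neuronal nitric oxide synthase, was 159 on A/J low-fat and 91.7, 87.0 and 79.1 on the other arrays, and Tac1, which encodes substance P, was above the floor on all 4, at 191, 155, 157 and 177. Ret, also measured, had 144, 117, 146 and 99.2. The sum of the enteric neuron list, mostly signals under the floor, was 68.4%, 73.3% and 69.9% of its A/J low-fat level on the other 3 arrays. Kit, the receptor of interstitial cells of Cajal, was 139 on A/J low-fat and under the floor on the other 3 arrays, and Ano1 was under it on all 4. Nos1 and Kit passed the filter on mean signal only through A/J low-fat, so they had to be highest there. All 4 mesothelial markers found were under the floor on every array. Of 4 enteric glia markers found, 2 were measured, among them Sox10 at 228, 202, 269 and 211. A list of muscle-layer matrix genes had 12 found and 7 measured, and summed to 92.9%, 93.4% and 96.3% of its A/J low-fat level. Its gene Tgfb1i1 had 330, 126, 323 and 251, nearly equal on the low-fat arrays. Striated muscle genes were under the floor on all arrays for 18 of 23, and the 2 that limma called went opposite ways. Acta1, skeletal actin, had 104, 131, 247 and 455 (log2 difference A/J minus C57BL/6J -1.52, limma adjusted p = 0.000715). Actc1, cardiac actin, had 207, 159, 82.1 and 70.6 (fitted difference 0.86 with both C57BL/6J signals under the floor, limma adjusted p = 0.0221). As with Des, Actc1 passed the filter on mean signal only through A/J.

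**Figure D3:**
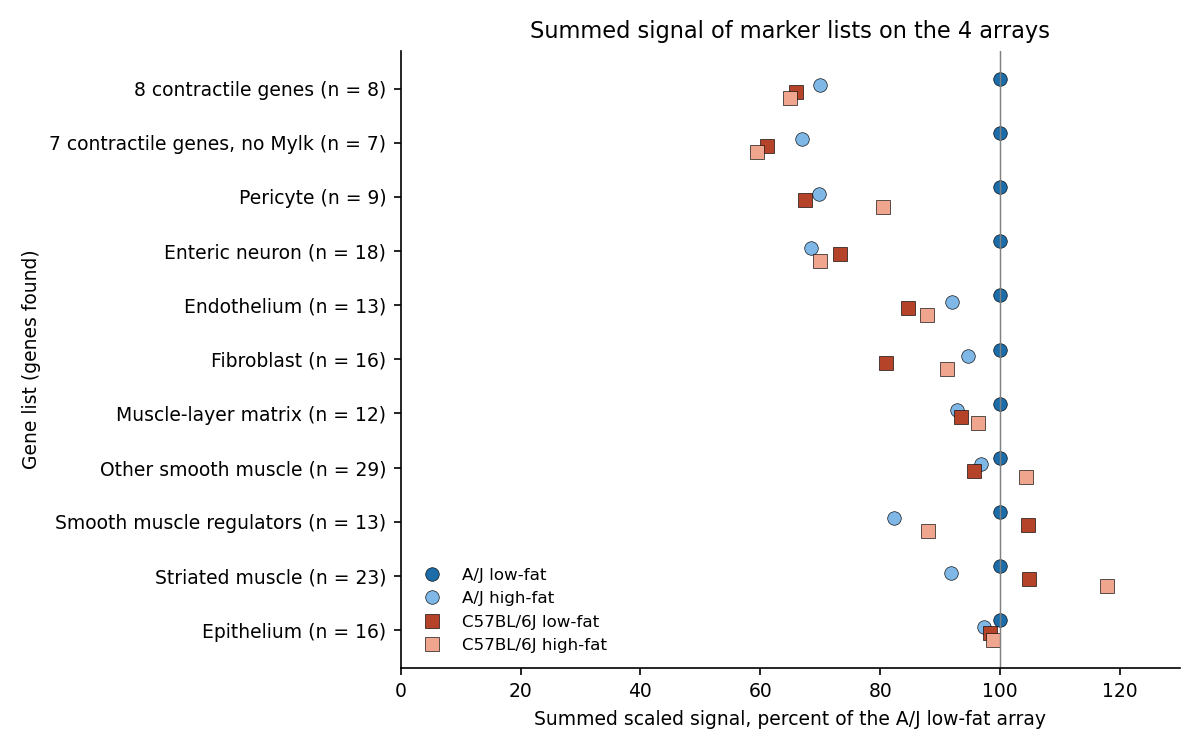
Summed scaled signal of each marker list on the 4 arrays, as a percentage of its sum on the A/J low-fat array, with the number of genes found; each point is 1 array. The 8 contractile genes lie between 65.0% and 69.9% on the other 3 arrays and the pericyte list between 67.5% and 80.4%, while the epithelial list lies between 97.3% and 98.8%. Rgs5 carries a large part of the pericyte sum. The enteric neuron sum is mostly signals under the floor, and 18 of the 23 striated muscle genes were under it on all 4 arrays.

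Genes of the pancreas and stomach also differed between these pools. The exocrine pancreas list, with 15 genes found, made up 0.701% of all signal for A/J on low-fat and 0.0202% on high-fat, the pair in which all 8 smooth muscle genes were lower on high-fat. In C57BL/6J, where the smooth muscle sums were nearly equal, its share was 0.689% and then 1.12%. The stomach list, with 9 genes found and 4 measured, summed to 3021, 1444, 1549 and 8436, so A/J low-fat was above A/J high-fat and C57BL/6J low-fat, as for the 8 genes, but C57BL/6J high-fat was highest. Its gene Gkn2, a gastrokine of the gastric surface, had 517, 39.2, 38.1 and 3001. The 5' probe set of 18S ribosomal RNA, a control, had scaled signals of 218, 84.4, 11010 and 1675. The part of pancreatic or gastric tissue, of nerve or of ribosomal RNA in the smooth muscle differences was not tested.

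The genes whose profiles lay closest to the mean profile of the 8 were not muscle genes. Likeness was the distance over the 4 arrays between log2 signals centred on their mean, among 7222 other genes with every signal above the floor. The closest were Cyth1, an exchange factor for ARF proteins, at 0.048, the cohesin subunit gene Stag1 at 0.048, the mitochondrial nuclease gene Endog at 0.057 and the nucleoporin gene Ranbp2 at 0.058. Next came Gmcl1, the nuclear import receptor gene Tnpo3, Ece1, which activates endothelin, the potassium channel gene Kcnk5 and Dao, an oxidase of D-amino acids, all within 0.075. Cyth1, for example, had signals of 692, 510, 432 and 409. Of the 8 genes themselves, Mylk at 0.17 and Tagln at 0.18 lay nearest to their own mean, with 89 and 97 other genes nearer. Des was farthest at 1.0, with 6248 other genes nearer, and Actg2 followed at 0.53 with 2293.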

How the data were processed

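Per the labels, biotinylated cRNA from total RNA was hybridised to the Affymetrix Mouse Expression Array 430A, and the authors computed a hybridisation intensity for each probe set with Microarray Suite 5.0 at default settings. The deposited intensity is linear, and the target to which the authors scaled it, if any, is not stated in the labels. Trimmed means (2% at each end) ran from 147 to 184, and arrays were multiplied by 2.72 to 3.41 to reach 500. Of 22690 probe sets, 64 controls were left out, and 20380 with 1 annotated gene gave 12393 genes, each read from its brightest probe set. A floor of 100 and log2 followed. The 8036 genes with a mean of at least 100 were fitted with limma 3.58.1 in R 4.3.3 (strain and diet terms, 1 residual degree of freedom, Benjamini-Hochberg adjustment); other steps used Python 3.11.15. On simulated data of 8036 genes the strain term recovered 71 of 100 changes of 1 log2 unit and all 100 of 2 units. It made 11 false calls. With 1 array per group, the spread between real pools was unknown and could not enter the simulated noise. These counts therefore check the fitting steps and do not give the power of this design. The number of arrays limits the precision. Named genes were drawn from the 8 genes, list members at least 2-fold in a comparison (up to 6 a list), and the 10 closest profiles. Not every list member of that size is named, and a pseudogene among the closest profiles was left out. Srf, Mrtfa, Myocd, Kit and other single markers were named after their values were seen. The genes and lists were chosen with earlier results of these data known. Alternatives were other normalizations, floors, a pseudocount, probe set rules, filters, an intensity trend and leaving out each array.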

Additional observations from a re-analysis of the deposited data

Results flagged for a closer look

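For 2 of the 8 genes the diet ratio pointed opposite ways in the strains. The log2 ratio of high-fat to low-fat for Acta2 was -0.70 in A/J against 0.17 in C57BL/6J, and that for Myl9 was -0.58 against 0.29. With 1 array in each group, the difference between the strains was not tested. Both genes were low on the A/J high-fat array relative to A/J low-fat, the pair in which the exocrine pancreas share was also lower. Over all 8 genes, the A/J ratio minus the C57BL/6J ratio had a median of -0.38 on the log2 scale, with 7 genes below 0 and Actg2 above it at 0.24. These signs depend on the settings: Des, at -0.046 with both C57BL/6J signals at the floor, became 0.43 with a floor of 50, 0.58 with a pseudocount of 50 and 0.29 with the mean of all probe sets, and Actg2 became -0.22 with a floor of 200.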

How the results depend on the processing

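The medians of the 8 genes kept their sign, or stayed at 0, under every alternative that gave a value. They ran from -0.58 to -0.33 for diet in A/J, -0.11 to 0 for diet in C57BL/6J, 0.36 to 0.69 for strain on low-fat and 0.06 to 0.37 for strain on high-fat; the difference of diet ratios ran from -0.59 with a floor of 50 to -0.25 with the mean of all probe sets. Medians without Mylk or Des, arrays scaled to the epithelial list and 1 factor over all arrays were added after seeing the data. The count of genes called for strain, 1, was 0 with a floor of 200, with the mean of all probe sets and with no filter on mean signal. The 1-factor fits that each left out 1 array rest 1 group on a single array. They also mix strain with diet, because the arrays that remain are not balanced. Over those fits the strain difference ran from -0.13 to 0.57 for Acta2 and from -0.059 to 0.55 for Myh11, and the diet difference from -0.59 to 0.063 for Acta2, -0.74 to 0.69 for Des, -0.64 to 0.34 for Myl9 and -0.50 to 0.023 for Mylk. Each turned sign without the A/J low-fat array, and that of Des for diet also without C57BL/6J high-fat, at 0.67. That value of Des holds part of its strain difference and is not a diet change alone. No paired analysis was possible because each group had 1 array. Signals near the floor limit Cnn1, Myh11 and Des most. When shared probe sets were left out, Acta2 had no level and Actg2 no value.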
